A study of Mus musculus with 20 samples.

Results

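The 7 genes described here, Cldn1, Tjp1, Sgpp2, Lypd2, Ntn4, Moxd1 and Crispld2, were taken by name as genes of perineurial cells, and all 7 were found among the 24062 genes of the deposited count table. They were followed by RNA sequencing in 20 libraries of C57BL/6J mouse nerve tumors. The neurofibroma group (12 libraries) was labelled Nf1fl/fl; DhhCre, the paraspinal tumors Ink4a/Arf+/-; Nf1fl/fl; DhhCre, and the GEM-PNST group (4 libraries) the same as the paraspinal tumors. The labels split the paraspinal tumors into sub-clusters, subgroup 1 (2 libraries) and subgroup 2 (2 libraries), which may have been drawn from expression. All groups thus share floxed Nf1 and the Cre driven by Dhh, a gene of the Schwann cell lineage, and the labels state that no drug was given. GEM-PNST is the labels' name for the nerve sheath tumors of these engineered mice, and no age was used here. These are whole tumors, so the cells without Cre, perineurial or other, are read together with the tumor cells.

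The perineurium is the sleeve of flattened cells that wraps each nerve fascicle. Its cells are joined by tight junctions and carry basal laminae on both faces, so that they keep the endoneurium apart from the tissue outside, and their sheath forms under the influence of desert hedgehog from Schwann cells, read through its receptor Patched. In plexiform neurofibroma this sleeve is known to be disrupted, with perineurial cells among the cells of the tumor.

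Neurofibroma libraries held 9900759 to 17594164 counts, paraspinal libraries 18474071 to 24314222 and GEM-PNST libraries 16282605 to 22218382. Levels are given as CPM, counts scaled to each library's size, with TMM factors that even out differences in RNA composition. Neurofibroma libraries 1 to 6 and 7 to 12 came from separate sequencing runs, and all paraspinal and GEM-PNST libraries from another, so run, genotype and stage cannot be told apart in a comparison with neurofibroma. Nothing in the labels ties a library to an animal of its own, so p-values measure the spread between these samples. GEM-PNST library 3 stood apart: its summed level of 10 salivary gland genes was 34780 CPM, against 84.3 to 117.6 CPM in the other GEM-PNST libraries. Where leaving it out changed a member's call or direction, both values are given.

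The perineurial label was checked against 12 other genes known from perineurial cells, among them Slc2a1 (the glucose transporter GLUT1), Itgb4 and Itga6 (the laminin receptor integrin), Ocln (occludin), Klf5 (a transcription factor) and Ptch1 (Patched). Their summed level ranged from 431.1 to 1703 CPM in neurofibroma, with a median of 1362 CPM. In paraspinal subgroup 1 it was 1362 and 1088 CPM, in subgroup 2 it was 585 and 824 CPM, and in GEM-PNST libraries 1 to 4 it was 109.7, 972, 252 and 678 CPM. The 972 CPM of GEM-PNST library 2 came mostly from Slc2a1 (546 CPM), Gja1 (247.5 CPM) and Msln (93.3 CPM). The rest in that library were Itga6 (54.4 CPM), Itgb4 (12.8), Klf5 (11.1), Muc1 (4.42), Ptch1 (1.35), Ocln (0.863) and Mpzl2 (0.0540). Tenm2 and Dleu7 were at 0 counts there. The cells that gave these values were not tested. No gene of the 12 was at 0 counts throughout a group. Within neurofibroma, with the values given further on, Cldn1, Tjp1, Lypd2 and Ntn4 went with this sum. Moxd1 went against it by Pearson's r, and Sgpp2 and Crispld2 did not pass with it. Cldn1 had higher r and rho with the fibroblast and macrophage sums than with this one. Ntn4 had higher r but lower rho with them, and these differences were not tested. Both genes passed with each of these sums, and Sgpp2 followed the neuronal sum, so these libraries do not tie the members to perineurial cells alone.

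Per kilobase of exon, a scale on which genes can be compared, the mean level in neurofibroma was 64.7 CPM for Cldn1, 38.7 for Tjp1, 23.1 for Sgpp2, 14.9 for Crispld2, 9.59 for Moxd1, 8.59 for Ntn4 and 4.16 for Lypd2. In GEM-PNST it was 16.5 CPM per kilobase for Cldn1, 15.8 for Moxd1, 3.91 for Crispld2, 3.26 for Tjp1, 1.34 for Ntn4, 0.183 for Lypd2 and 0.0300 for Sgpp2. The GEM-PNST mean for Moxd1 was carried by library 3 (195.1 CPM), and that for Lypd2 came from library 3 alone (0.496 CPM). Library 3 was highest for 4 of 7 members, also for Cldn1 (221 CPM) and Crispld2 (42.4 CPM).

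Upstream sequences are shown for Cldn1 and Sgpp2, because Sgpp2 is the member called between GEM-PNST and paraspinal tumors and Cldn1, the junction gene, went with a different set of marker genes across neurofibromas. Each run is the 250 bases before the RefSeq start of the gene (GRCm38.p6), printed 5′ to 3′ on the gene's strand. The window of Cldn1 is chr16:26371840-26372089 on the minus strand and that of Sgpp2 is chr1:78310096-78310345 on the plus strand. Capitals mark CACCTG or its reverse complement CAGGTG, the E-box letters bound by SNAI and ZEB repressors.
Cldn1: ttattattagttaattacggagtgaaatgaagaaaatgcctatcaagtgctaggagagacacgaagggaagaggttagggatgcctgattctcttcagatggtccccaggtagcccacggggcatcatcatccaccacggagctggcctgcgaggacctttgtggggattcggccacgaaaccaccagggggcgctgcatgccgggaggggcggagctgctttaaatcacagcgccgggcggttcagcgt
Sgpp2: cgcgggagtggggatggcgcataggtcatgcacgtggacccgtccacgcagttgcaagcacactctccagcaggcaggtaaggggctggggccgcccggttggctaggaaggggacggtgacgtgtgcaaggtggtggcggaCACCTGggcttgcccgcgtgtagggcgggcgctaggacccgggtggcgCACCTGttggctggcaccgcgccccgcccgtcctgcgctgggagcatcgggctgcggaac

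The Sgpp2 window holds the E-box letters at 2 places, which begin 108 and 60 bases before the start, and Moxd1 holds them once, 78 bases before its start. Windows were found for 6 of the 7 members, so 2 of 6 held CACCTG on either strand. Of 15433 windows of the same length from genes tested, 16.2% did (identical windows counted once, a chromosome left out). The windows of Tjp1 (chr7:65371245-65371494) and Ntn4 (chr10:93640799-93641048) lie inside the gene spans given below, which are GENCODE's. The GC box letters GGGCGG stood in 5 of 6 members and in 53.0% of all windows. The TEAD letters GGAATG (11.2% of all windows), the AP-1 letters TGANTCA (5.02%) and the GLI letters GACCACCCA (0.181%) were in 0 of the 6 windows, searched on both strands. A match describes letters only.

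Cldn1 (claudin-1, the strand-forming protein that seals perineurial tight junctions; GRCm38 chromosome 16, 26356642 to 26371841, minus strand) spread widely in every group. In neurofibroma its lowest level was 30.2 CPM (library 11), its median 237 CPM and its highest 718 CPM (library 6). In paraspinal subgroup 1 it was at 216 and 64.1 CPM and in subgroup 2 at 164.5 and 219.7 CPM. In GEM-PNST libraries 1 to 4 it was at 60.2, 1.403, 221 and 36.3 CPM. The group means fell in the order neurofibroma, subgroup 2, subgroup 1 and GEM-PNST, and each neighbouring pair of groups overlapped. GEM-PNST library 3 lay above every paraspinal library, while library 2 lay below every other library of the series.

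Tjp1 (ZO-1, the scaffold that ties claudins to the actin cytoskeleton; chromosome 7, 65296165 to 65527781, minus strand) stepped down from group to group. Neurofibroma libraries had from 156.1 CPM (library 11) to 436.5 CPM (library 12), with a median of 298 CPM. Subgroup 1 had 133.6 and 125.7 CPM, and subgroup 2 had 33.9 and 41.7 CPM. GEM-PNST libraries 1 to 4 had 3.72, 24.7, 26.1 and 47.3 CPM. Every neurofibroma library lay above subgroup 1, and both subgroup 1 libraries lay above both of subgroup 2. Subgroup 2 and GEM-PNST overlapped.

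Ntn4 (netrin-4, a secreted relative of laminin that is built into basement membranes; chromosome 10, 93640681 to 93747207, plus strand) had 7.04 CPM at its lowest in neurofibroma (library 11), a median of 34.3 CPM and 49.2 CPM at its highest (library 1). Subgroup 1 had 58.6 and 48.5 CPM, subgroup 2 had 11.6 and 8.49 CPM, and GEM-PNST libraries 1 to 4 had 3.04, 3.18, 5.06 and 8.72 CPM. Subgroup 1 was the highest group by its mean, and the GEM-PNST range overlapped with subgroup 2 through GEM-PNST library 4 alone.

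Crispld2 (a secreted protein with LCCL domains, found in mesenchymal cells; chromosome 8, 119992438 to 120052793, plus strand) was highest in subgroup 1, at 117.1 and 123.9 CPM. Neurofibroma libraries ranged from 25.5 CPM (library 11) through a median of 70.6 CPM to 102.7 CPM (library 7), so they lay below both subgroup 1 libraries. Subgroup 2 had 48.3 and 72.3 CPM. GEM-PNST libraries 1 to 4 had 4.13, 9.39, 42.4 and 18.7 CPM, all below the paraspinal libraries.

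Sgpp2 (sphingosine-1-phosphate phosphatase 2, an enzyme that removes the phosphate from the lipid signal sphingosine-1-phosphate; chromosome 1, 78310345 to 78420289, plus strand) had 14.7 CPM at its lowest in neurofibroma (library 4), a median of 91.0 CPM and 214.7 CPM at its highest (library 11). Subgroup 1 had 112.7 and 85.4 CPM, and subgroup 2 had 27.1 and 29.2 CPM. GEM-PNST libraries 1 to 4 held 0, 5, 1 and 2 counts, or 0, 0.270, 0.0496 and 0.162 CPM. The GEM-PNST libraries thus lay apart from all 16 others. A floor of 3 counts equals 0.149 to 0.242 CPM in these libraries, so 3 of the 4 were below the level that a count of 0 allows, and floors cover counting error only. Exons of Sgpp2 share 248 bases with Farsb on the other strand, and no source used here states whether reads were counted by strand.

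Moxd1 (a monooxygenase of the endoplasmic reticulum related to dopamine beta-hydroxylase; chromosome 10, 24223517 to 24302790, plus strand) was alike in mean level in neurofibroma and the paraspinal subgroups. It had 12.2 CPM (library 12), a median of 27.7 CPM and 68.1 CPM (library 11) in neurofibroma. Subgroup 1 had 23.0 and 38.2 CPM and subgroup 2 had 36.0 and 24.4 CPM. GEM-PNST libraries 1 to 4 had 0, 0.863, 195.1 and 6.62 CPM. GEM-PNST library 3 was above every other library of the series, and the other 3 were below all of them.

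Lypd2 (a small membrane-anchored protein of the LY6 and PLAUR family; chromosome 15, 74732247 to 74734329, minus strand) was the least abundant member. It had 0.131 CPM (library 2), a median of 3.14 CPM and 6.69 CPM (library 9) in neurofibroma, 6.19 and 3.58 CPM in subgroup 1, and 1.99 and 7.69 CPM in subgroup 2. In GEM-PNST it had 0 counts in libraries 1, 2 and 4 and 10 counts (0.496 CPM) in library 3. Neurofibroma library 2 lay within the GEM-PNST range, and the other 11 neurofibroma libraries lay above it, library 11 at 0.515 CPM closest.

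**Figure D1:**
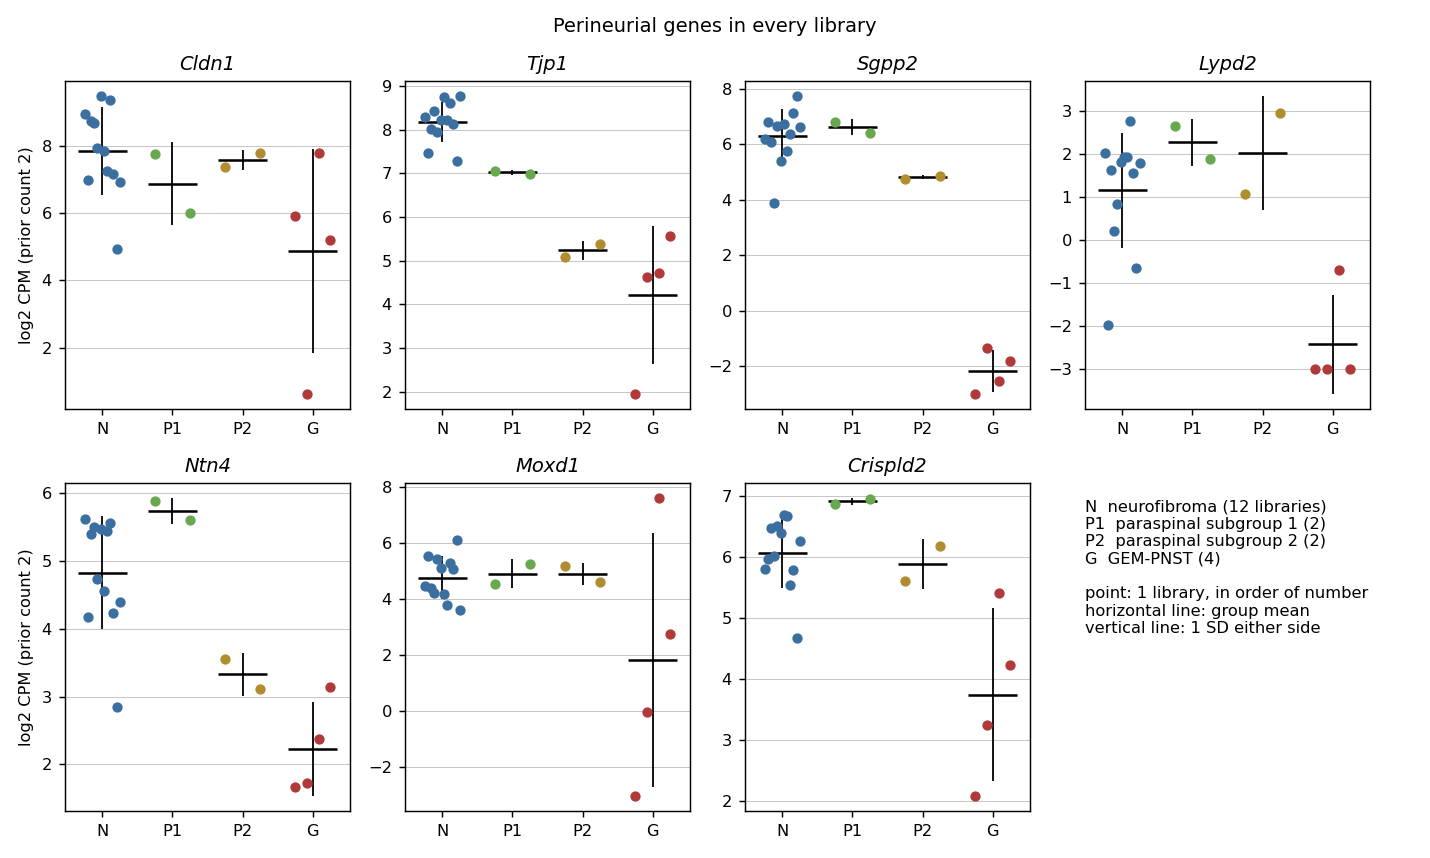
Log2 CPM (prior count 2) of the 7 genes in each of the 20 libraries, by group. Points are libraries, horizontal lines group means and vertical lines 1 SD. Sgpp2 in the 4 GEM-PNST libraries lies apart from the 16 other libraries, Tjp1 steps down over the groups, and Moxd1 in GEM-PNST runs from 0 counts to 195.1 CPM.

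GEM-PNST was compared with the paraspinal tumors first, since genotype label and sequencing run are the same for both. Some of these libraries carry sample codes that are alike, and whether any of them share an animal is not stated. Sgpp2 fell, and no other member passed the threshold (adjusted p under 0.05, edgeR's quasi-likelihood test with Benjamini-Hochberg adjustment over the 16589 genes tested; all 7 members passed the filter on low counts). The paraspinal mean was 63.6 ± 42.5 CPM (SD, n = 4) and the GEM-PNST mean 0.120 ± 0.120 CPM (SD, n = 4), a log2 fold change of -9.05 (SE 0.98, edgeR adjusted p = 0.00246). Thus 1 of 7 members was called, against 10.2% of all genes tested in either direction, 7.69% called lower and 2.48% higher. The call held with each of the 8 libraries left out in turn, and against subgroup 2 alone the adjusted p was 0.0517 (log2 fold change -7.83).

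The other members had larger spread against their differences. Lypd2 had a log2 fold change of -5.17 (SE 1.43, edgeR adjusted p = 0.0547), Ntn4 of -2.72 (SE 0.75, 0.0530), Crispld2 of -2.32 (SE 0.71, 0.0711) and Tjp1 of -1.77 (SE 0.77, 0.151). Cldn1 had -1.10 (SE 1.09, 0.506) and Moxd1 0.72 (SE 1.70, 0.804). In 3 of 7 members, Sgpp2, Lypd2 and Crispld2, every GEM-PNST library lay below every paraspinal library, as did 16.4% of all genes tested. The median log2 fold change of the 7 members was -2.32, against 0 over all genes tested.

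GEM-PNST library 3 and the choice of paraspinal libraries bear on these values. Without GEM-PNST library 3, Lypd2 (edgeR adjusted p = 0.0109) and Crispld2 (-3.11, 0.0229) passed as lower. Lypd2 was then at 0 counts in every GEM-PNST library left, so no fold is given. Cldn1 moved from -1.10 to -2.39 (edgeR adjusted p = 0.156), and the log2 fold change of Moxd1 turned from 0.72 to -3.63 (adjusted p = 0.111). Against subgroup 1 alone Ntn4 passed as well (-3.48, adjusted p = 0.0289), and with the RLE scaling it had an adjusted p of 0.0499. Among the GEM-PNST libraries, library 3 had the highest level for 4 of 7 members (Cldn1, Lypd2, Moxd1 and Crispld2), library 4 for 2 (Tjp1 and Ntn4), library 2 for Sgpp2 and library 1 for none. Over all genes with a highest library, the shares were 31.9%, 27.9%, 21.5% and 18.7% for libraries 1 to 4.

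Markers of other nerve cells moved between the same libraries, where 7.69% of all genes tested were called lower and 2.48% higher. The summed level of 12 sensory neuron genes lay between 3947 and 6565 CPM in paraspinal libraries, and GEM-PNST libraries had 4.60 to 152 CPM, with 10 of 12 called lower and Scn10a at 0 counts in all 4. For 10 myelinating Schwann cell genes the paraspinal sum was 4814 to 11430 CPM and the GEM-PNST sum 75.4 to 402 CPM, and 9 of 10 were called lower. For 10 Schwann cell lineage genes it was 5008 to 9467 CPM and 2.64 to 1029 CPM, with 2 of 10 called lower. The macrophage sum (8 genes, 0 called by edgeR, 3 with an unadjusted p under 0.05) was 224 to 929 CPM in the paraspinal tumors and 791 to 2872 CPM in GEM-PNST. The macrophage sums overlapped, as GEM-PNST library 2 (791 CPM) lay below both subgroup 2 libraries (929 and 859 CPM). The fibroblast sum (12 genes, 0 called, 0 unadjusted) also overlapped, at 4340 to 12030 CPM and 151 to 14680 CPM. So did the endothelial sum (12 genes, 0 called, 0 unadjusted), at 219 to 434 CPM and 146 to 779 CPM. The part of these cells in the members' values was not tested. In whole tumors fewer cells of a type and less RNA per cell cannot be told apart.

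Paraspinal and neurofibroma libraries differed in 1 of 7 members, Tjp1, while 59.4% of all genes tested were called in either direction, 29.2% lower and 30.2% higher. Tjp1 fell from 302.5 ± 89.4 CPM (n = 12) in neurofibroma to 83.7 ± 53.3 CPM (n = 4) in paraspinal libraries, a log2 fold change of -1.86 (SE 0.38, edgeR adjusted p = 0.000418). It was also the 1 member of 7 without overlap, with all paraspinal libraries below, as for 18.1% of all genes. The other 6 did not pass, and their log2 fold changes were -0.92 for Cldn1 (SE 0.62, edgeR adjusted p = 0.216), -0.54 for Sgpp2 (SE 0.50, 0.367), 0.78 for Lypd2 (SE 0.58, 0.260), -0.03 for Ntn4 (SE 0.49, 0.969), -0.01 for Moxd1 (SE 0.38, 0.979) and 0.34 for Crispld2 (SE 0.30, 0.332). For Ntn4 the value was 0.75 (edgeR adjusted p = 0.236) with subgroup 1 alone and -1.73 (0.0234) with subgroup 2 alone, while the subgroups compared directly gave an adjusted p of 0.273. For Sgpp2 it was 0.12 (0.887) and -1.75 (0.0371). Within neurofibroma run A alone Cldn1 also passed, at -1.37 (0.0347), and Tjp1 was called against each run alone.

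GEM-PNST and neurofibroma libraries differed in 5 of 7 members, all lower in GEM-PNST, where 73.1% of all genes tested were called, 38.1% lower and 35% higher. Sgpp2 had a log2 fold change of -9.50 (SE 0.89, edgeR adjusted p = 8.3e-08), Tjp1 of -3.58 (SE 0.50, 8.85e-06), Lypd2 of -4.29 (SE 1.11, 0.00238), Ntn4 of -2.70 (SE 0.49, 0.000127) and Crispld2 of -1.94 (SE 0.49, 0.00205). Sgpp2 and Tjp1 did not overlap between the groups, 2 of 7 members against 25.2% of all genes lying wholly below. Cldn1 had -1.98 (SE 0.93, adjusted p = 0.0646) and Moxd1 0.71 (SE 1.00, 0.532). Without GEM-PNST library 3 all 7 were called lower, as were 6406 of the 16589 genes tested, and 5639 genes were called higher. Cldn1 was then at -3.29 (edgeR adjusted p = 0.0111) and Moxd1 at -3.67 (0.00371). Lypd2, at 0 counts in the GEM-PNST libraries left, had an adjusted p of 0.000229. Lypd2 lost its call with limma-voom (-4.70, adjusted p = 0.103). With RLE scaling, which moved the median of all genes from -0.14 to -0.28, Cldn1 passed at -2.14 (0.0463). These stage comparisons share libraries, so their values are set side by side only.

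**Figure D2:**
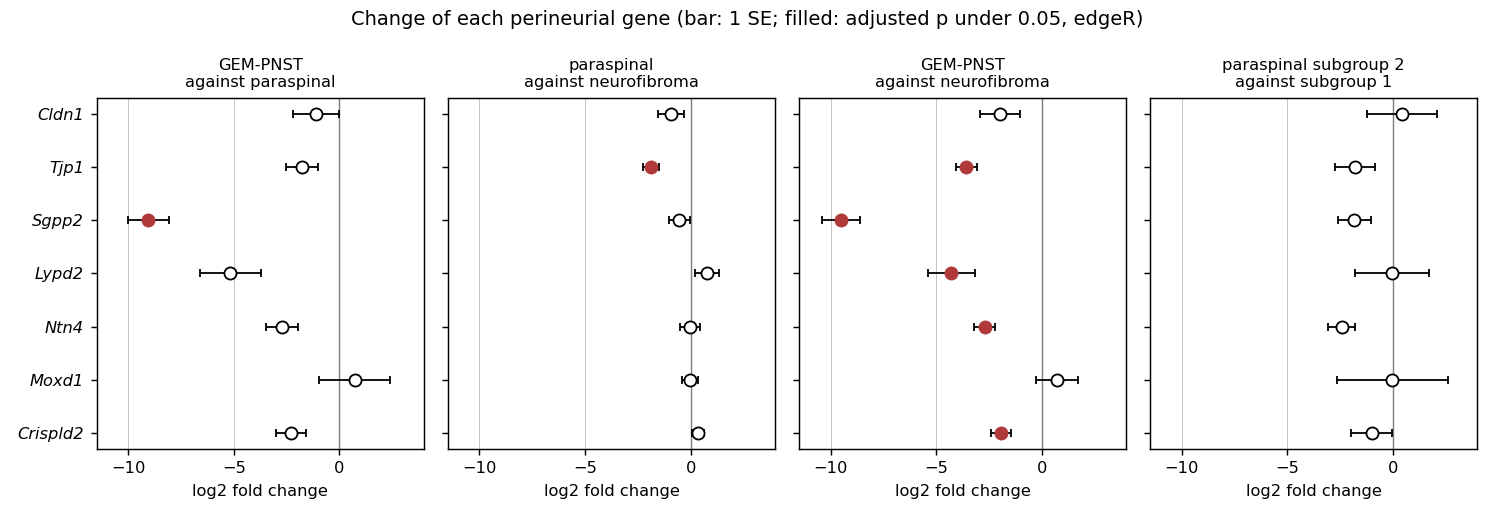
Log2 fold change of each gene with 1 SE in the 4 comparisons, with edgeR calls filled. Sgpp2 (-9.05 and -9.50) is the member with the lowest value in both GEM-PNST comparisons, Tjp1 is filled in both comparisons with neurofibroma, and no point is filled between the paraspinal subgroups.

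Between the paraspinal subgroups, 4 of 7 members, Tjp1, Sgpp2, Ntn4 and Crispld2, had both subgroup 2 libraries below both of subgroup 1, as did 34.9% of all genes tested. None of the 7, and 0% of all genes, passed by edgeR (2 members and 2100 genes had an unadjusted p under 0.05), so no member was called. The log2 fold changes were -2.43 for Ntn4 (SE 0.64, edgeR adjusted p = 0.273), -1.83 for Sgpp2 (SE 0.77, 0.395), -1.79 for Tjp1 (SE 0.96, 0.502) and -1.01 for Crispld2 (SE 0.98, 0.755). Cldn1 (0.44, SE 1.65), Lypd2 (-0.03, SE 1.76) and Moxd1 (-0.03, SE 2.61) overlapped. These SE and p-values came from a fit that also held the GEM-PNST libraries, whose spread enters them. Moxd1 was at 22.95 to 38.23 CPM in the paraspinal libraries and at 0 to 195.1 CPM in GEM-PNST. The SE and the lack of calls thus do not measure the spread or likeness of the subgroups themselves. DESeq2 called 2 members and 1212 genes, limma-voom 4 members and 5453 genes, and the fit of all 20 libraries 1 member and 1231 genes. The macrophage sum was 603 and 224 CPM in subgroup 1 and 929 and 859 CPM in subgroup 2, and the fibroblast sum 7690 and 4340 CPM and 12030 and 9226 CPM. Their part was not tested.

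The 12 other perineurial genes were followed in the same comparisons. Against paraspinal, 2 of 12 were called lower in GEM-PNST and 0 higher, where 7.69% and 2.48% of all genes tested were. Ptch1 fell by 6.06 on the log2 scale (SE 1.35, edgeR adjusted p = 0.0309), from 216 and 117.0 CPM in subgroup 1 and 5.49 and 6.92 CPM in subgroup 2 to 0.676, 1.35, 0.992 and 2.42 CPM in GEM-PNST. Ptch1 in subgroup 2 thus lay nearer to GEM-PNST than to subgroup 1. Ocln fell by 3.23 (SE 0.71, adjusted p = 0.0290), from 3.72 to 0.414 CPM. Tenm2, a cell adhesion protein, had -6.12 (SE 1.64, adjusted p = 0.0506) and Dleu7 -4.39 (SE 1.46, 0.0847). The median of the 12 was -1.63, against 0 over all genes tested. Against neurofibroma 8 of 12 were called lower and 2 higher (Gja1, a gap junction protein, and Msln, mesothelin). Over all genes tested 38.1% were lower and 35% higher. The 2 higher genes were uneven over GEM-PNST libraries 1 to 4. Msln was at 0, 93.3, 1.04 and 67.65 CPM there, against a neurofibroma median of 3.59 CPM. Gja1 was at 1.01, 247.5, 51.45 and 329.7 CPM, against a median of 23.65 CPM. Between paraspinal and neurofibroma 3 of 12 were lower (Itga6, Tenm2 and Klf5) and 1 higher (Gja1), against 29.2% and 30.2% of all genes tested. The median of the 12 was -0.12, against -0.02 over all genes.

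**Figure D3:**
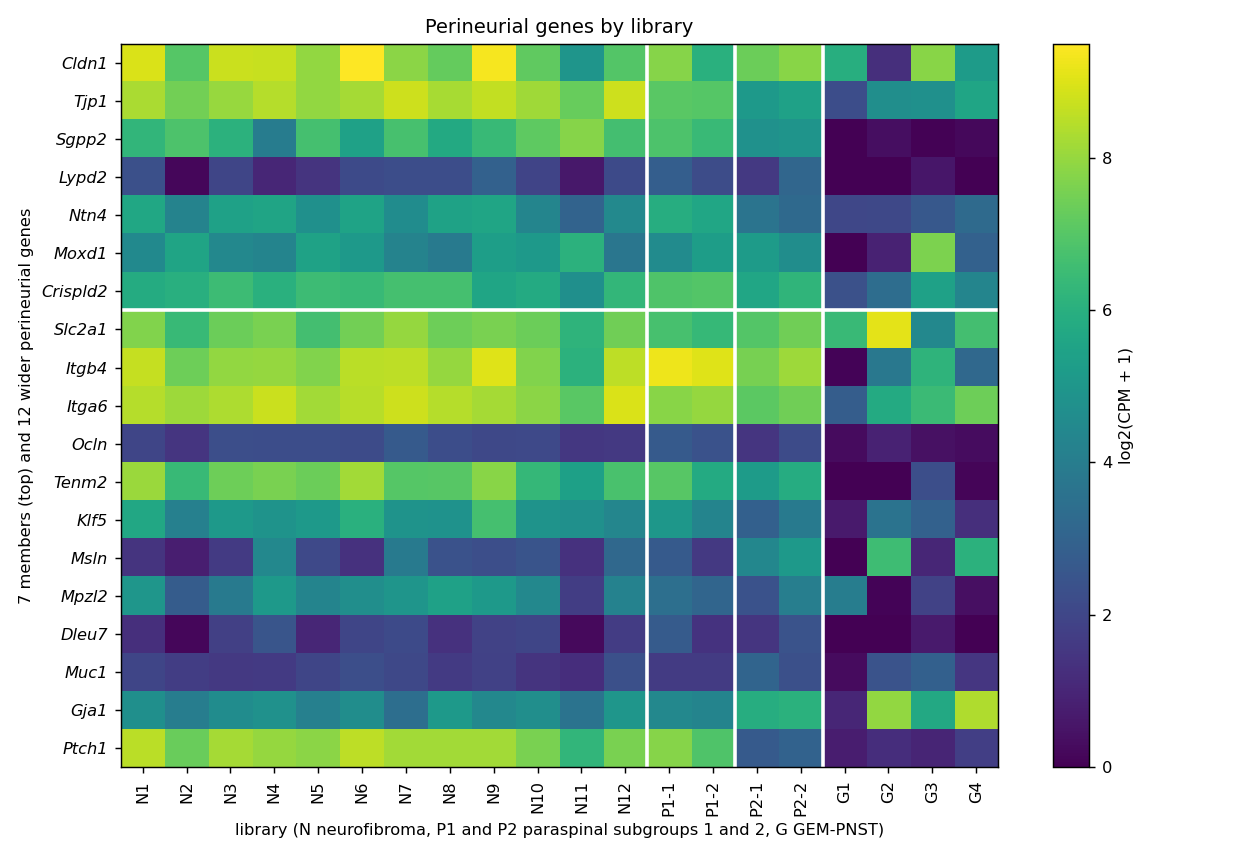
Level, as log2(CPM + 1), of the 7 genes and the 12 other perineurial genes in each library, where columns are libraries and rows genes. Neurofibroma library 11 is the lowest of its group for Cldn1 (30.2 CPM), Tjp1 (156.1 CPM) and Ptch1 (74.1 CPM), and Ptch1 is at 6.92 CPM or less in subgroup 2 and GEM-PNST.

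Among genes that work with Cldn1 and Tjp1 in tight junctions, 21 of 24 were tested. In GEM-PNST against paraspinal, where 7.69% of genes tested were called lower and 2.48% higher, 4 were lower and 0 higher (median -0.96, against 0). They were Cldn19 (-8.42, SE 1.42, edgeR adjusted p = 0.0121) and Cldn11 (-5.82, SE 1.25, 0.0278), claudins also known from myelinating glia, Ocln, and Inadl (-3.06, SE 0.68, 0.0308), a polarity scaffold also called Patj. Tjp3, found in epithelia, had 65.6 CPM in GEM-PNST library 1 and 0.755 to 7.89 CPM in the other 3.

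Of 20 genes that make, carry, sense or degrade sphingosine-1-phosphate, none was called by edgeR in either direction between GEM-PNST and paraspinal tumors. Over all genes tested 10.2% were called. Of the 20, 4 had an unadjusted p under 0.05 by edgeR. At 0 counts in both was 1 gene, and the median of the other 19 was 0.48. Sgpp1, the other phosphatase of this kind, averaged 69.2 ± 51.0 CPM (SD, n = 4) over the GEM-PNST libraries and 36.0 ± 6.21 CPM (SD, n = 4) over the paraspinal ones (log2 fold change 0.84, SE 0.46, edgeR adjusted p = 0.235). Sgpp1 was called lower in paraspinal than in neurofibroma tumors (-1.46, SE 0.17, 1.11e-06), where it had 98.9 ± 18.1 CPM (n = 12). S1pr3, a receptor for the lipid, had -1.80 (SE 0.48, adjusted p = 0.0508) in GEM-PNST against paraspinal. Sgpl1, the lyase that destroys the lipid, had 0.56 (SE 0.27, 0.187).

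Between GEM-PNST and paraspinal tumors 7.69% of all genes tested were called lower and 2.48% higher. Of 16 netrins, netrin receptors and partners, 1 was called lower and 0 higher in the same comparison (median -1.55, against 0). It was Ntn5 (-5.08, SE 0.93, edgeR adjusted p = 0.0155). Ntn1 had -1.86 (SE 0.85, 0.168), and Lamc1, the laminin chain that netrin-4 binds, -0.61 (SE 0.69, 0.562). Of 8 tested relatives of the members, Lypd6b was called lower (-5.32, SE 1.31, 0.0414) and 7 did not pass. Dbh, the relative of Moxd1, was at 803.6 CPM in subgroup 1 library 1 and 608.6 CPM in neurofibroma library 9, and 1.11 CPM or less in the other 18 libraries. Moxd1 did not stand apart in those 2 libraries, at 23.0 and 38.7 CPM.

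Of 13 tested hedgehog genes, 2 were called lower in GEM-PNST and 0 higher (median -0.41, against 0), where 7.69% and 2.48% of all genes tested were. The 2 were Ptch1 and Shh, a ligand. Shh had a mean of 27.1 CPM in paraspinal and 0 counts in all 4 GEM-PNST libraries. Dhh, the Schwann cell ligand that shapes the perineurium, averaged 319.6 CPM over the paraspinal and 20.4 CPM over the GEM-PNST libraries (-3.99, SE 1.69, edgeR adjusted p = 0.141). Gli1, a target and effector of the pathway, had 127.0 and 17.6 CPM (-2.87, SE 1.79, 0.293).

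Within neurofibroma the members did not vary as 1 set. Library 11 was the lowest of the 12 for Cldn1, Tjp1, Ntn4 and Crispld2 and the highest for Sgpp2 and Moxd1. It was also lowest in the summed levels of the wider perineurial (431.1 CPM), fibroblast (1080 CPM), endothelial (132.4 CPM) and macrophage (51.6 CPM) genes and highest in the sum of sensory neuron genes (13560 CPM). Library 4 was lowest for Sgpp2 and for the neuronal sum (40.3 CPM). Of the 21 pairs of members, 3 passed by Pearson's r after Benjamini-Hochberg adjustment over the pairs (log2 CPM, n = 12, permutation tests with 100000 resamples, two-sided). The share of all gene pairs that would pass was not determined, so this count is not shown to be particular to the members. Cldn1 and Ntn4 rose and fell together (r = 0.909, rho = 0.867, permutation p adjusted 0.00609 and 0.0124). This was r = 0.939 within run A, 0.876 within run B, and 0.806 without the 2 libraries farthest from the median of Cldn1. Tjp1 and Lypd2 had r = 0.773 (rho 0.657, permutation p adjusted 0.0434 and 0.0829), with 0.717 and 0.881 within the runs, but 0.342 without the 2 farthest libraries, so the relation rests on those. Tjp1 and Moxd1 had r = -0.73 (rho -0.748, permutation p adjusted 0.0438 and 0.0470), with -0.757 and -0.72 within the runs and -0.455 without the 2 farthest. Sgpp2 and Ntn4 passed by rho and not by r (rho -0.804, r -0.742, permutation p adjusted 0.0238 and 0.0503), with -0.614 and -0.923 within the runs and -0.813 without the 2 farthest.

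Over 42 relations of the 7 members to 6 marker sums (log2 of the summed CPM + 1), the sum that Sgpp2 followed most closely was that of sensory neuron genes. Its r was 0.923 and its rho 0.944 (n = 12, permutation p adjusted 0.00126 and 0.00042), with 0.959 and 0.922 within runs A and B. It was 0.822 without the 2 libraries farthest from the median neuronal sum, 4 and 11. Sgpp2 went against the macrophage sum (r = -0.814, rho -0.874, permutation p adjusted 0.00785 and 0.00560; within runs -0.8 and -0.863, and -0.768 without the 2 farthest). It also went against the fibroblast sum (r = -0.762, rho -0.881, permutation p adjusted 0.0406 and 0.00560; within runs -0.708 and -0.877, and -0.716 without the 2 farthest). Its r with the wider perineurial sum was -0.59 (permutation p adjusted 0.134).

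Cldn1, Tjp1, Lypd2 and Ntn4 rose with the wider perineurial sum, with r of 0.858, 0.851, 0.735 and 0.876 and rho of 0.755, 0.755, 0.811 and 0.853 (n = 12, permutation p adjusted from 0.00238 to 0.0417 for r and from 0.00672 to 0.0215 for rho). The r within runs was 0.963 and 0.879 for Cldn1, 0.903 and 0.962 for Tjp1, 0.845 and 0.965 for Lypd2, and 0.955 and 0.875 for Ntn4. Without the 2 farthest libraries, r was 0.622, 0.578, 0.442 and 0.583 in the same order, so the size of these relations rests in part on them. Cldn1 and Ntn4 also rose with the fibroblast sum (r of 0.907 and 0.922, rho of 0.853 and 0.804, permutation p adjusted 0.00238 for both r, and 0.00672 and 0.0119 for rho; 0.743 and 0.816 without the 2 farthest) and with the macrophage sum (r of 0.893 and 0.939, rho of 0.818 and 0.79, permutation p adjusted 0.00238 and 0.00231 for r, and 0.00966 and 0.0122 for rho; 0.809 and 0.881 without the 2 farthest). Within runs A and B these were 0.946 and 0.880 for Cldn1 and 0.911 and 0.967 for Ntn4 with fibroblasts, and 0.738 and 0.909, and 0.818 and 0.977, with macrophages. Tjp1 rose with the endothelial sum (r = 0.849, rho = 0.832, permutation p adjusted 0.00246 and 0.00847; 0.928 and 0.864 within the runs, 0.717 without the 2 farthest). ZO-1 is also a junction protein of endothelium. Moxd1 went against the endothelial sum by r (-0.722, permutation p adjusted 0.0286) but not by rho (-0.608, 0.104), with -0.792 and -0.704 within the runs and -0.407 without the 2 farthest libraries. It also went against the wider perineurial sum by r (-0.649, permutation p adjusted 0.0489) but not by rho (-0.406, 0.291), with -0.644 and -0.699 within the runs and -0.194 without the 2 farthest, so that relation rests on those libraries. By rho alone, Ntn4 and Cldn1 went against the sensory neuron sum: Ntn4 had rho -0.79 and r -0.522 (permutation p adjusted 0.0122 and 0.148), and Cldn1 rho -0.692 and r -0.435 (0.0468 and 0.208). Their r within runs A and B was -0.432 and -0.919 for Ntn4 and -0.289 and -0.734 for Cldn1, and without the 2 farthest libraries -0.725 and -0.522. Crispld2 passed with none of the 6 sums. How many of all genes tested would pass with these sums was not determined. Relations to the sums are therefore not shown to be particular to the members.

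**Figure D4:**
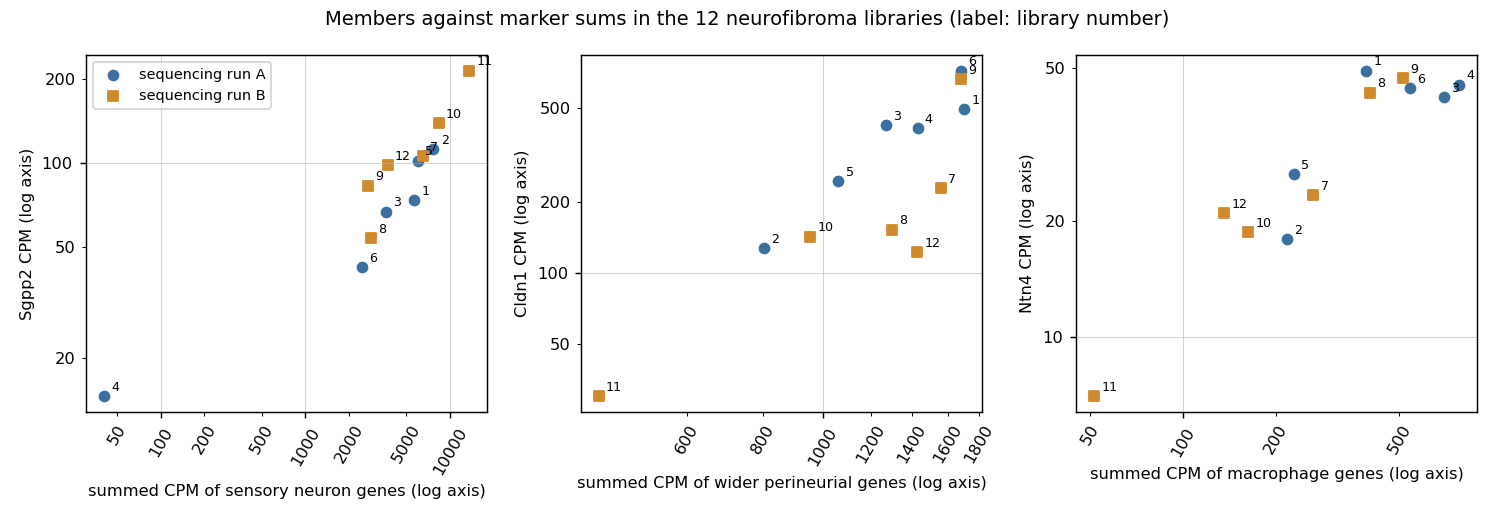
CPM of Sgpp2, Cldn1 and Ntn4 against the summed CPM of sensory neuron, wider perineurial and macrophage genes in the 12 neurofibroma libraries (log axes, symbols by sequencing run, numbers are libraries). Sgpp2 is lowest in library 4 and highest in library 11, the ends of the neuronal sum (40.3 and 13560 CPM), while Cldn1 and Ntn4 are lowest in library 11.

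Genes with the pattern most like each member were sought among the genes tested by Pearson correlation of log2 CPM over the 20 libraries, each taken as its difference from the mean of its group or, in neurofibroma, its run (5 strata). Libraries share depth and tissue makeup, and the values are descriptions only. GEM-PNST libraries spread widely (Moxd1 from -3.015 to 7.61 log2 CPM), so they can weigh heavily in them. For Cldn1 they were Eya2 (0.973), Ebf2 (0.964) and Zbtb7c (0.953), and for Tjp1 Itga6 (0.973), Ptpn14 (0.965) and Pkd2 (0.965). Itga6, the integrin chain, was 1 of the 12 wider perineurial genes. For Sgpp2 they included Spock2 (0.954) and Sept5 (0.952). For Ntn4 they were Ifrd2 (0.921), Csf1r (0.914), the macrophage growth factor receptor, and Abi3 (0.914). Lypd2 was most like Dnajb7 (0.876), Gsn (0.876) and Vill (0.862), Moxd1 most like P2ry1 (0.973), Camkk1 (0.963) and Rhoq (0.958), and Crispld2 most like Cxcr6 (0.938), Sparc (0.918) and Arhgef10 (0.917). Between members the highest values on this scale were 0.699 for Tjp1 and Crispld2 and 0.663 for Cldn1 and Lypd2, and the lowest were -0.516 for Sgpp2 and Ntn4 and -0.509 for Sgpp2 and Cldn1. Within neurofibroma alone the r of these pairs was 0.482, 0.557, -0.742 and -0.631 in the same order. Other pairs changed sign. Tjp1 and Moxd1 had 0.451 here and -0.73 within neurofibroma, and Moxd1 and Crispld2 had 0.614 and -0.645.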

How the data were processed

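The deposited table holds raw counts of sequencing reads for each gene in 20 libraries; the authors used TopHat, HISAT2, featureCounts and mm10, per the submitters' processing notes, which give no versions. RNA came from an RNeasy Plus Micro Kit and libraries from a Nextera XT kit, per the labels' protocols. Annotation and strand setting are not given in the sources used here. Runs were read from alignment file names that the authors deposited, and the meaning of sample codes is not stated. Neurofibroma libraries 8 and 9 carry the same code number, and subgroup 1 library 1 and GEM-PNST library 2 carry codes that differ in the last letter and in case. The codes of the subgroup 2 libraries differ in a single letter. Members, gene lists and alternatives were chosen with earlier results of these data known.

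Tests were run with edgeR 4.0.16 in R 4.3.3 (quasi-likelihood F test with robust dispersion, TMM scaling, Benjamini-Hochberg adjustment, threshold 0.05) on 16589 genes kept by its expression filter over the 3 stages, which held 95.8% to 99.97% of the counts. A stage comparison was fitted on its own libraries, and the subgroups together with GEM-PNST. The SE was taken from the fold change and F. Log2 CPM used a prior count of 2. The text names the members, from each list up to 4 genes with the smallest adjusted p between GEM-PNST and paraspinal (2 where none passed), and the 3 genes most like each member; other genes were chosen after their values were seen. Results for 2 genes that this rule covers are not reported here. Of 217 list genes 215 were in the table, 5 by an older symbol. The alternatives comprised RLE scaling, genes unfiltered or kept at 1 CPM in 4 libraries, DESeq2 1.42.0, voom of limma 3.58.1 with sample weights, 1 fit of all libraries, a replicate block, single subgroups or runs, and each library left out. A fit without robust dispersion was added after seeing the data. The tests were also run on simulated counts in which a gene had the same dispersion in both groups. In these data GEM-PNST libraries differed more among themselves than those within a paraspinal subgroup did, so no support is drawn from that run. Over 74 pairs within groups, the lowest chi-square divided by its degrees of freedom was 22.6, so no pair was treated as 1 sample sequenced again. Pieces or tumors of the same animal could also differ this much, so the value does not show that libraries came from separate animals. Gene positions are GENCODE's for GRCm38 and upstream sequences RefSeq's (GRCm38.p6). Correlations used scipy 1.17.1.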

Additional observations from a re-analysis of the deposited data

Results flagged for a closer look

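Among 14 tests of the 7 members in the groups of 4 libraries, made on CPM, 2 had 1 library far from the rest. The cutoff is passed in about 1 in 20 groups of normally distributed values. CPM values are skewed, so that rate does not hold for these groups. Both were GEM-PNST library 3. Moxd1 had 195.1 CPM there, and the next highest GEM-PNST library had 6.62 CPM. On the log2 CPM scale Moxd1 was more evenly spread, at -3.015, -0.0189, 7.61 and 2.75 in GEM-PNST libraries 1 to 4. Lypd2 had 0.496 CPM there (10 counts), and the other 3 GEM-PNST libraries had 0 counts. With 3 libraries at 0 any count in the fourth stands apart, so the flag carries no weight for Lypd2. The same library had the highest salivary gland sum (34780 CPM), and the part of that tissue in these values was not tested.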

How the results depend on the processing

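Between GEM-PNST and paraspinal tumors 1 member and 1686 genes passed. Members numbered 2 (1688 genes) with RLE factors, 4 (4650) with DESeq2 and 3 (2818) with limma-voom. They numbered 5 (7060) in the fit of all 20 libraries, 2 (1367) against subgroup 1 alone and 0 (61) against subgroup 2 alone. DESeq2 gave no adjusted p for Moxd1 in any comparison fitted with GEM-PNST libraries, so its member counts there leave Moxd1 out. Leaving out single libraries gave 1 to 3 members and 507 to 2304 genes, with 3 members without GEM-PNST library 3. The gene count moved by over 1.5 times when any paraspinal library was dropped (525 and 507 genes for the libraries of subgroup 1, 1104 and 783 for those of subgroup 2), and when GEM-PNST library 4 was (708). Moxd1 turned to -1.66 with limma-voom and ranged from -3.63 to 1.15 with libraries left out. Between paraspinal and neurofibroma (1 member, 9858 genes) 3 members passed for subgroup 2 alone, all as lower. Of the 16589 genes tested, 5201 were lower and 4764 higher in that setting. Against run A alone 2 members passed as lower, with 4809 genes lower and 4587 higher. Log2 fold changes near 0 changed sign: Moxd1 to 0.11 with limma-voom and 0.013 for subgroup 1 alone, Ntn4 to 0.75 for subgroup 1 and 0.23 against run B, Sgpp2 to 0.12 for subgroup 1, and Crispld2 to -0.28 for subgroup 2. With libraries left out Ntn4 ranged from -0.47 to 0.32 and Moxd1 from -0.11 to 0.14. Between GEM-PNST and neurofibroma (5 members, 12120 genes) Moxd1 was -1.21 with limma-voom and -3.67 to 1.12 with libraries left out. There limma-voom did not call Lypd2 (-4.70, adjusted p 0.103) and called Cldn1 (-2.72, 0.0381), as did DESeq2 (-2.14, 0.00797). Between the subgroups (0 members, 0 genes) DESeq2 called 2 (1212 genes), limma-voom 4 (5453) and the fit of all 20 libraries 1 (1231). With libraries left out Cldn1 ranged from -0.16 to 1.57, Lypd2 from -1.30 to 0.63 and Moxd1 from -0.35 to 0.41. Where a group then held 1 library, its spread was assumed to be like the others'. The cause of these changes was not tested.

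Replicate numbers were entered as a block although they did not pair the samples: GEM-PNST and neurofibroma libraries of the same number had correlations of -0.0563, 0.121, 0.0571 and 0.103, and 2 of 4 correlated best with their own number. With the replicate block 2 members and 840 genes passed between GEM-PNST and paraspinal, 0 and 2762 between paraspinal and neurofibroma, and 7204 genes between GEM-PNST and neurofibroma. Tjp1 lost its call between paraspinal and neurofibroma (-1.50, adjusted p 0.163). The block gave Moxd1 values of -6.56, -3.24 and, between the subgroups, 0.17, and put Ntn4 at 0.047 between paraspinal and neurofibroma.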
